A study of Mus musculus with 41 samples.

Results

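The calcitonin family of peptides and receptors was read out in 13 RNA-seq libraries of mouse androgenetic haploid embryonic stem cells (AG-haESCs), which carry a single genome derived from sperm. The family was taken as 8 gene symbols, Calca, Calcb, Adm, Calcr, Calcrl, Ramp1, Ramp2 and Ramp3, among 24028 distinct symbols listed in every library. All 8 were found. The members were chosen by family, after the FPKM level of Calca had been seen to differ between media and after the switch in these same libraries, so differences between media, between cells before and after the switch and between genotypes are given for the 8 genes as description, without a test. 4 of the 8 genes, Calca, Adm, Ramp2 and Ramp3, reached 1 FPKM (fragments per kilobase of transcript, scaled to the mapped fragments of the library) in at least 3 libraries, and the other 4 genes did so in none.

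All lines were on a C57BL/6 background, were grown on feeder fibroblasts with LIF and the GSK3 inhibitor CHIR99021 at 3 µM, and were enriched for haploid cells by sorting. The wild-type line 2i-14 in 2i/L, a serum medium that adds the MEK inhibitor PD0325901 at 1 µM, gave 3 libraries, at passages p18, p39 and p50. Wild-type cells in TSa2i/L, derived in serum and then kept without serum in a medium that holds the Src inhibitor CGP77675 at 1.5 µM in place of PD0325901, gave 5 libraries, 3 of line TSa2i-14 (p22, p47 and p54) and 2 of line TSa2i-C57 (p9 and p58). TSa2i-14 is labelled wild type and, by the study's own description, carries an actin-EGFP transgene. The line 2i-O48 lacks H19-DMR and IG-DMR, the line 2i-O48-TKO lacks the gene H19 besides, and 1 library of either was made in 2i/L. After 5 passages in the serum-free medium SF/a2i/L, 1 further library was made of each line that had been grown in 2i/L. A line with several libraries was sampled at several passages, which are not independent lines, and TSa2i/L differs from 2i/L in its inhibitor, in serum and in the lines grown in it, which cannot be told apart. The question for this family was how the level of each peptide, receptor and receptor partner stood in the MEK-inhibitor medium and in the Src-inhibitor medium.

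The members of the family are secreted peptides and the receptor parts that bind them. Calca makes calcitonin or, by alternative use of its last exons, the neuropeptide CGRP, Calcb makes a second CGRP, and Adm makes adrenomedullin. Calcr and Calcrl encode receptors with 7 membrane passes that signal mainly through Gs, adenylate cyclase and cAMP. RAMP proteins pass the membrane once and pair with these receptors, and the pairing sets which peptide is bound. Calca is best known from thyroid C cells and sensory neurons, and Adm, Calcrl and Ramp2 from blood and lymph vessels.

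Of the family, Calca stood apart between media, and the stretch around its start site is shown for that reason. The RefSeq sequence covers 250 bases before and 50 bases after the start of Calca, on the minus strand of GRCm38.p6 at chr7:114636308-114636607, and the capitals mark TGACG, the core of the site bound by the cAMP-responsive factor CREB.
Calca: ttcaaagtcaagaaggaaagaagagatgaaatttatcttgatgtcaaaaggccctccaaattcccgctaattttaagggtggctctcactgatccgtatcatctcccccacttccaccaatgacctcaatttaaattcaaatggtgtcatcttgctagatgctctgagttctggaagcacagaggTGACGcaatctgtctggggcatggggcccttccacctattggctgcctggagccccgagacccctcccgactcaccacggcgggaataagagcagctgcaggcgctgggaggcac
TGACG was searched on both strands and stood once, at position -65 from the start site. It was found in 20.8% of 32851 promoters of the same length. The full palindrome TGACGTCA, present in 1.79% of promoters, the TATA box TATAAA, present in 13.6%, and the hypoxia element core ACGTG, present in 19.6%, had no match. The E-box CANNTG, at which basic helix-loop-helix factors bind, stood at positions -113 and 27 and is present in 72.3% of promoters. The window held 8 CpG pairs, and the median of all promoters was 7.
The promoter of Adm, the other ligand gene that was expressed, is shown for comparison, from the plus strand at chr7:110627407-110627706.
Adm: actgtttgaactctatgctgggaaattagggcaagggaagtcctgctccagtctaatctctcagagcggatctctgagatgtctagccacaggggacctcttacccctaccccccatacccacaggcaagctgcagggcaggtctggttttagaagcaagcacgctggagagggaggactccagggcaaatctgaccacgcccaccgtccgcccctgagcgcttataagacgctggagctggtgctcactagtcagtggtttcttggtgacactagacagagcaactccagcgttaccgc
None of the motifs named above occurred in it, and it held 9 CpG pairs. These matches describe the sequence only.

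Calca lies on chromosome 7 of NCBIM37 (mm9) from 121774994 to 121779871 on the minus strand, and its 2 annotated transcripts share a single row in the files, so that the calcitonin and CGRP forms could not be separated. In 2i/L, wild-type 2i-14 cells had 17.0 FPKM of Calca at p18, 9.56 at p39 and 8.03 at p50. In TSa2i/L, TSa2i-14 cells had 105.5 FPKM at p22, 83.2 at p47 and 64.9 at p54. TSa2i-C57 cells had 125.7 FPKM at p9 and 108.2 at p58. Every library kept in TSa2i/L was thus above every library kept in 2i/L, and the lowest of the former was 3.81 times the highest of the 5 libraries in 2i/L. Group means were 11.5 ± 4.82 FPKM in wild-type 2i/L (SD, n = 3) and 97.5 ± 23.7 FPKM in TSa2i/L (SD, n = 5), a ratio of 8.45. On the log2(FPKM + 1) scale the difference was 3.00 with a standard error of 0.26, which placed Calca at rank 10 of 10387 genes ordered by their rise. Groups that did not overlap, with TSa2i/L higher, were seen for 11.8% of these genes, and since Calca was chosen for this contrast nothing is read from its place among them.

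**Figure D1:**
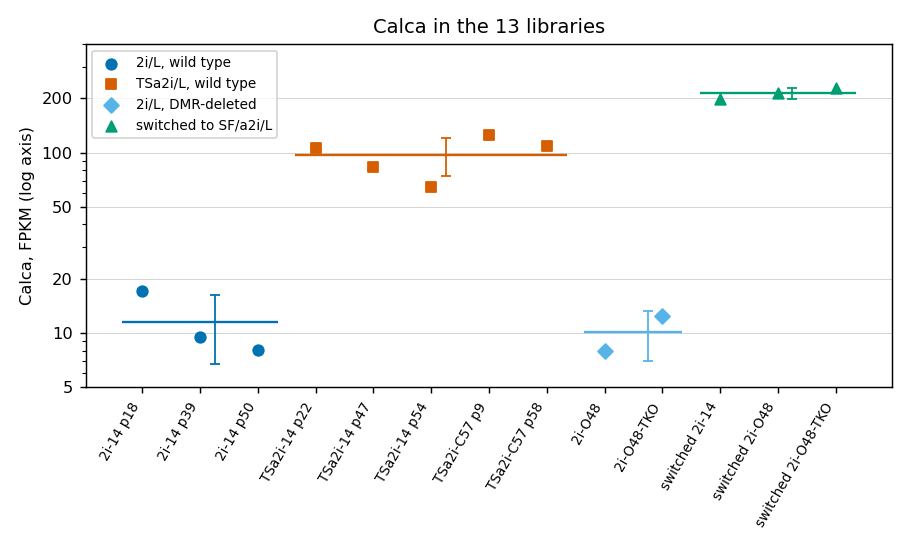
Calca level in FPKM (log axis) in each of the 13 libraries, with points coloured by group, horizontal lines at the group means and bars of 1 SD. The 5 libraries in 2i/L lie between 7.92 and 17.0 FPKM, the 5 in TSa2i/L between 64.9 and 125.7 and the 3 switched libraries between 199.0 and 228.3.

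Calca was also higher after the switch in lines that had been kept in 2i/L. Calca was 199.0 FPKM in 2i-14 after the switch, 214.9 FPKM in 2i-O48 and 228.3 FPKM in the TKO line. Before the switch, it was 7.92 FPKM in 2i-O48, against 12.4 FPKM in 2i-O48-TKO. The level after the switch was 24.8 times that of 2i-14 at p50, 27.1 times that of 2i-O48 and 18.5 times that of 2i-O48-TKO. The labels do not say which passage of 2i-14 was switched; against p39 the ratio was 20.8, and against p18 it was 11.7. Thus Calca was higher in all 3 pairs, which held for 19.4% of 9759 genes, and every switched library was above every control, which held for 11.5%. Within lines, the log2 difference was 4.39 with a standard error of 0.19, rank 4 of the 9759 genes. Since Calca was chosen with this contrast known, nothing is read from its rank or from these shares. The mean of the switched group was 214 ± 14.6 FPKM (SD, n = 3), and its highest library was 1.15 times the lowest, the smallest such ratio of the groups.

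Calca did not stop at the TSa2i/L level after the switch. The lowest switched library was 1.58 times the highest TSa2i/L library, and the group means were 214 and 97.5 FPKM. These groups differ in line, derivation and time in the medium, which cannot be told apart, and both had a serum-free medium with the same inhibitors when collected. From the lowest to the highest of the 13 libraries, Calca ranged 28.8-fold.

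Between genotypes in 2i/L, Calca overlapped. The deleted lines had a mean of 10.2 ± 3.14 FPKM (SD, n = 2), and their values of 7.92 and 12.4 lay within or next to the wild-type range of 8.03 to 17.0 FPKM. The log2 difference of the deleted lines from wild type was -0.13 with a standard error of 0.36.

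Late and early passages in TSa2i/L were compared by a test, because this contrast played no part in the choice of the genes. The late group held TSa2i-14 p47 and p54 and TSa2i-C57 p58, and the early group held TSa2i-14 p22 and TSa2i-C57 p9. Calca was lower at each late passage than at the early passage of the same line, but the groups overlapped, since TSa2i-C57 p58 (108.2 FPKM) was above TSa2i-14 p22 (105.5 FPKM). The log2 difference was -0.46 with a standard error of 0.24, which did not pass (limma, adjusted p = 0.587). No gene of the 10502 tested passed in this comparison (0% called; 928 had an unadjusted p under 0.05). The p-values measure only the spread between these libraries.

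The values of Calca rest on many fragments. Depth was estimated from the smallest FPKM values, and at the estimated depth the lowest count behind a Calca value was 147.5 fragments and the highest 3969. By level Calca ranked between 3816 and 5262 among all symbols in the 2i/L libraries and between 580 and 721 in the switched libraries.

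Calcb, the neighbour of Calca and the gene of the second CGRP, was not detected. It lies 82285 bases away (chromosome 7, 121862157 to 121866879, plus strand). Of the libraries 12 had a listed value of 0, and switched 2i-14 cells had 0.136 FPKM, with 2.55 fragments behind it. In all 13 libraries it was below the level that 3 fragments represent, 0.156 to 0.245 FPKM. These limits cover counting error only.

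None of the genes around Calca was called in any comparison. Of 6 other genes annotated within 500 kb of Calca or Calcb, Copb1, a subunit of the coatomer of Golgi vesicles, and Psma1, a proteasome subunit, were expressed well enough to test. Copb1 was 43.5 to 57.2 FPKM in wild-type 2i/L, 44.3 to 56.5 in TSa2i/L and 31.6 to 42.1 after the switch. Psma1 was 754.4 to 903.6 FPKM, 667.4 to 924.8 and 971 to 1163 in the same groups. Copb1 was thus lower in every switched library than in any wild-type library, and Psma1 higher, without a call. How many genes stood apart in this way from all wild-type libraries was not counted. Against the 3 controls of the fit, another set of libraries, 29.4% of genes were lower in all 3 pairs and 11.5% were higher without overlap. In TSa2i/L against 2i/L, in which 7.57% of genes were called, the log2 differences were -0.03 (adjusted p = 0.94, limma) for Copb1 and -0.10 (adjusted p = 0.729, limma) for Psma1. After the switch, where 6.89% of genes were called, they were -0.40 (adjusted p = 0.234, limma) and 0.32 (adjusted p = 0.187, limma). Cyp2r1, the vitamin D 25-hydroxylase, starts at -73.4 kb from the start of Calca and peaked in 2i-O48 (1.50 FPKM) and switched 2i-14 cells (1.35 FPKM), with 0.104 to 0.665 in the other libraries. Pde3b and Insc stayed under 1 FPKM in every library, and 4933406I18Rik was listed at 0 in every library.

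**Figure D2:**
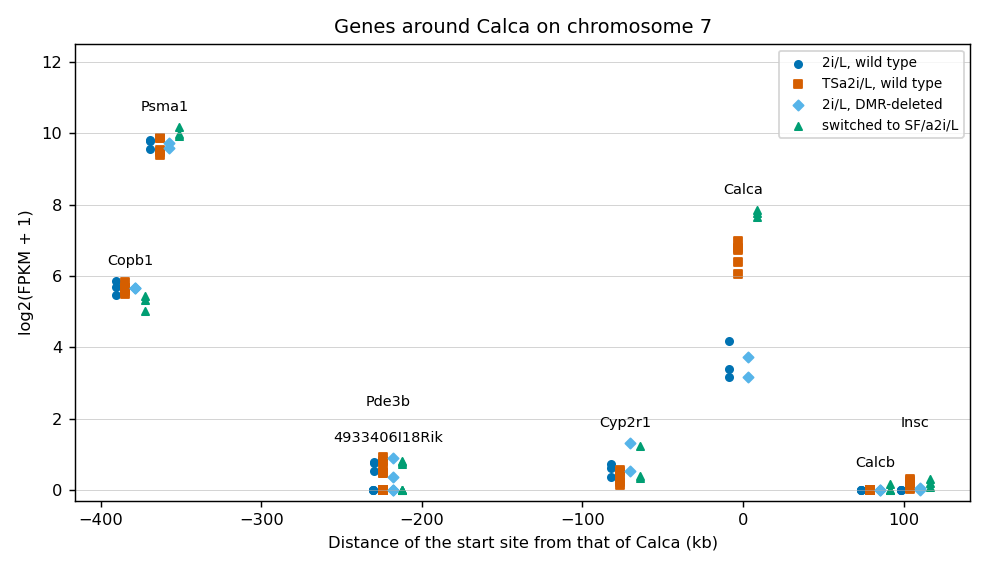
Level on the log2(FPKM + 1) scale (vertical axis) of Calca, Calcb and the 6 other genes within 500 kb of them, by the distance of each start site from that of Calca in kb (horizontal axis); each point is 1 library, offset sideways by group. Calca alone of the 8 genes shows groups standing apart by several log2 units, while the values of Psma1 and of Copb1 lie within 1 log2 unit.

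Adm, the gene of adrenomedullin (chromosome 7, 117771175 to 117773331, plus strand), was expressed at a lower level and followed another order. In wild-type 2i/L it was 1.17 FPKM at p18, 4.62 at p39 and 0.814 at p50. In TSa2i/L, TSa2i-14 cells had 2.76 FPKM at p22, 3.04 at p47 and 10.2 at p54, and Adm was 1.85 and 3.15 FPKM in TSa2i-C57 at p9 and p58. The medium groups overlapped, with a log2 difference of 0.71 and a standard error of 0.45. Among the 5 libraries in 2i/L the deleted lines lay at the ends of the range, where 2i-O48 had 0.0413 FPKM (about 1 fragment) and 2i-O48-TKO had 5.06 FPKM.

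After the switch Adm was low in all 3 lines, at 0.502 FPKM in 2i-14, 0.529 in 2i-O48 and, highest, 0.770 in 2i-O48-TKO. Against its own control it was 0.617 times in 2i-14 with p50 as control (0.109 times with p39 and 0.431 times with p18) and 0.152 times in 2i-O48-TKO, whereas 2i-O48 started from about 1 fragment and its 13.7 fragments after the switch give no reliable ratio. Adm did not reach the level needed for the fit of this comparison. The ratio of Calca to Adm, both per length, was 2.07 to 14.6 in wild-type 2i/L and 6.3 to 67.8 in TSa2i/L, so that these ranges overlapped. The ratio was 192 in 2i-O48 (where about 1 Adm fragment stands behind it), 2.45 in 2i-O48-TKO and 297 to 407 after the switch.

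At late passages in TSa2i/L every Adm value was above every early one, which was also the case for 18.5% of the genes tested. The log2 difference was 0.81 with a standard error of 0.45 and did not pass (limma, adjusted p = 0.598). The wild-type libraries with the highest Adm levels were also those richest in fibroblast markers. The summed level of 15 fibroblast markers was highest in TSa2i-14 p54 (400.8 FPKM), 2i-14 p39 (319.3 FPKM) and TSa2i-C57 p58 (295.3 FPKM). The fibroblast proteoglycan Dcn was 58.2, 3.76 and 19.6 FPKM in these libraries, but also 3.55 FPKM in TSa2i-14 p22, which is not among them. Sparc, which is also high in libraries with little other fibroblast RNA, made up 249.7, 218.9 and 248.4 FPKM of these sums. The mean log2(FPKM + 1) of the 15 markers was 3.07, 2.51 and 1.98 in these libraries, 0.67 to 1.16 in the other 5 wild-type libraries, 0.59 to 0.68 in the switched libraries, where Adm was low, and 0.64 in 2i-O48-TKO, where Adm was 5.06 FPKM. Without the 3 libraries rich in these markers the late difference of Adm was 0.30 with a standard error of 0.40, but the late group was then 1 library, TSa2i-14 p47, assumed to vary like the early ones. The part of feeder RNA in the Adm level was not tested; in bulk samples fewer cells of a type and less RNA per cell cannot be told apart. For Calca, leaving out the same libraries gave a medium difference of 3.03.

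The receptors were near or under the limit of detection. Calcr, the calcitonin receptor (chromosome 6, 3635677 to 3714713, minus strand), was listed at 0 in 10 libraries. It was 0.0176 FPKM in TSa2i-14 p54, 0.0431 after the switch of 2i-14 and 0.0839 after that of 2i-O48-TKO, which correspond to 1.06, 3.16 and 5.29 fragments. Calcr was thus below the 3-fragment level in 11 of 13 libraries, and the other 2 were switched libraries.

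Calcrl, the receptor for CGRP and adrenomedullin (chromosome 2, 84170783 to 84265568, minus strand), was listed at 0 in 4 libraries and was below the 3-fragment level in 10. It was 0.151 FPKM in TSa2i-14 p54 (11.8 fragments), 0.107 in TSa2i-C57 p58 (7.85 fragments) and 0.120 in switched 2i-O48 (10.9 fragments). The first 2 of these are libraries with a high fibroblast sum and the third is not. The part of other cells in these low values was not tested. Calcr and Calcrl together came to at most 0.169 FPKM in any library, while Calca reached 228.3 FPKM.

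**Figure D3:**
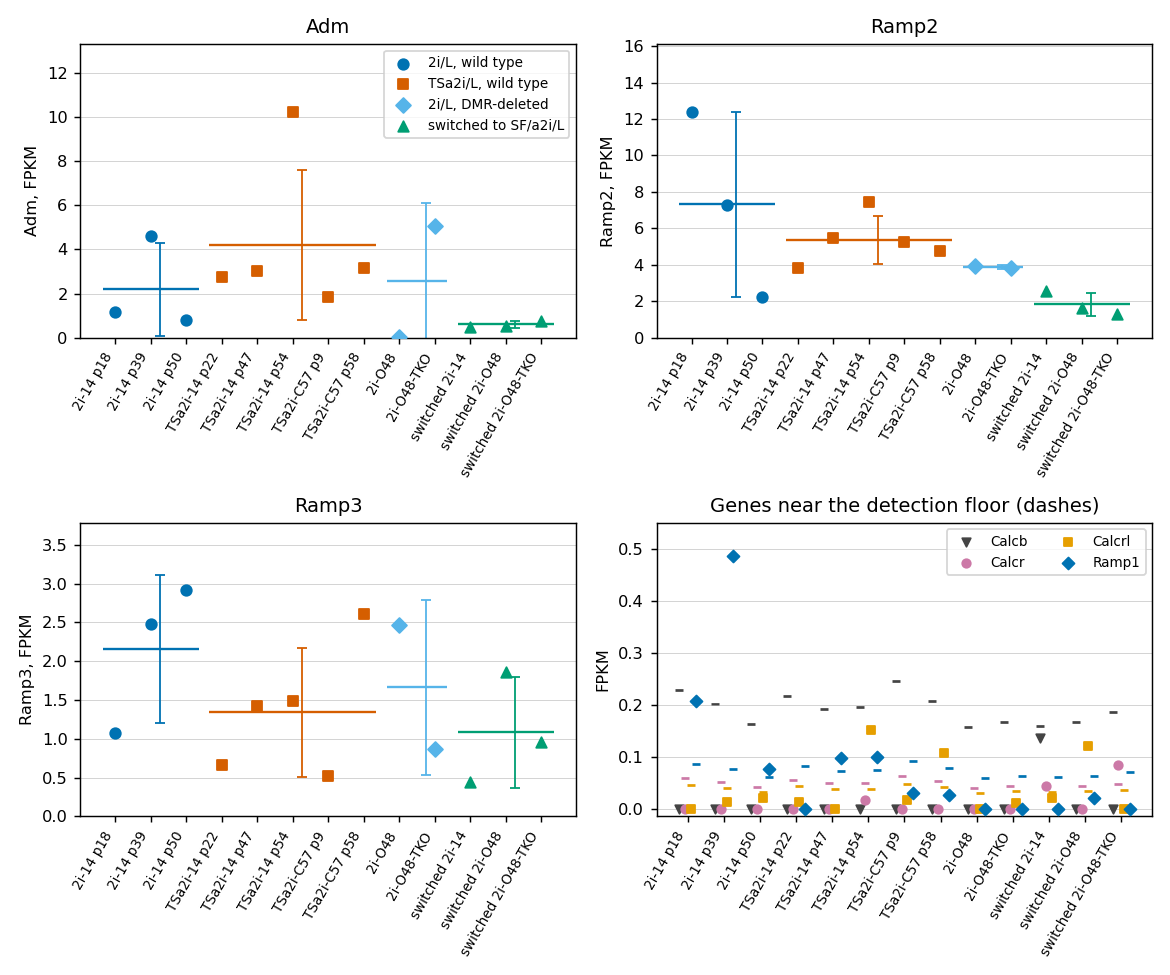
FPKM of Adm, Ramp2 and Ramp3 in each library, coloured by group with group means and bars of 1 SD, and, in the last panel, FPKM of Calcb, Calcr, Calcrl and Ramp1 with dashes at the level that 3 fragments represent for each gene. Adm peaks at 10.2 FPKM in TSa2i-14 p54, Ramp2 at 12.4 in 2i-14 p18, and most points of the last panel lie under their dashes.

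Of the RAMPs, Ramp2 and Ramp3 were detected in every library and Ramp1 was not. Ramp1, the partner that makes Calcrl a CGRP receptor (chromosome 1, 93076399 to 93121773, plus strand), was 0.208, 0.486 and 0.0763 FPKM in 2i-14 at p18, p39 and p50. In TSa2i/L, TSa2i-14 cells had 0 FPKM at p22, 0.0983 at p47 and 0.0989 at p54, and Ramp1 was 0.0309 and 0.0263 FPKM in TSa2i-C57 at p9 and p58. It was listed at 0 in both deleted lines in 2i/L and in 2 switched libraries, and at 0.0214 FPKM in switched 2i-O48. Only the 3 wild-type 2i/L libraries and TSa2i-14 p47 and p54 were above the 3-fragment level, and the highest value rests on 19.3 fragments.

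Ramp2, the partner that makes Calcrl an adrenomedullin receptor (chromosome 11, 101107342 to 101120860, plus strand), was the RAMP with the highest level in 11 of 13 libraries, holding 42.9% to 90.6% of the summed FPKM of the RAMPs. In wild-type 2i/L it was 12.4 FPKM at p18, 7.29 at p39 and 2.24 at p50. In TSa2i/L, TSa2i-14 cells had 3.85 FPKM at p22, 5.46 at p47 and 7.47 at p54, and Ramp2 was 5.26 and 4.75 FPKM in TSa2i-C57 at p9 and p58. The TSa2i/L values lay inside the wide 2i/L range, with a log2 difference of -0.19 and a standard error of 0.38. The deleted lines had 3.96 and 3.81 FPKM, also inside that range.

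After the switch Ramp2 was 2.55 FPKM in 2i-14, 1.64 FPKM in 2i-O48 and the lowest of all in 2i-O48-TKO, at 1.32 FPKM, and the mean of 1.84 ± 0.636 FPKM (SD, n = 3) was the lowest of the groups. On the log2(FPKM + 1) scale the difference was -0.91 for 2i-O48 and -1.05 for 2i-O48-TKO. In 2i-14 the difference depended on the passage used as control, 0.13 against p50, -1.23 against p39 and -1.92 against p18. The fit with p50 gave -0.61 with a standard error of 0.28, and the fit with p18 gave -1.29. With p50 as control Ramp2 was lower in 2 of 3 pairs; a level lower in all 3 pairs was seen for 29.4% of the 9759 genes. At late passages in TSa2i/L the log2 difference was 0.30 with a standard error of 0.25 (limma, adjusted p = 0.714).

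Ramp3, which also makes an adrenomedullin receptor with Calcrl (chromosome 11, 6558524 to 6577478, plus strand), was 1.08, 2.47 and 2.91 FPKM in 2i-14 at p18, p39 and p50. In TSa2i/L, TSa2i-14 cells had 0.662 FPKM at p22, 1.42 at p47 and 1.49 at p54, and Ramp3 was 0.524 and 2.60 FPKM in TSa2i-C57 at p9 and p58. The groups overlapped, with a log2 difference of -0.45 and a standard error of 0.30. In both lines Ramp3 was thus lowest at the earliest passage. Late against early passages in TSa2i/L, the values did not overlap, with late passages higher, which held for 18.5% of the genes tested. The log2 difference was 0.81 with a standard error of 0.24. It did not pass, with an unadjusted p of 0.0103 and an adjusted p of 0.53 (limma). Both early values were under 1 FPKM, so Ramp3 entered this fit only through the group where it was high. Nothing is therefore read from its unadjusted p or from the lack of overlap. Without the 3 libraries rich in fibroblast markers the difference was 0.61, with TSa2i-14 p47 as the 1 late library left.

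The switch gave no single direction for Ramp3. After it, 2i-14 had 0.441 FPKM, 2i-O48 had 1.86 and 2i-O48-TKO had 0.954. The ratios to the control were 0.152 in 2i-14 with p50 (0.178 with p39 and 0.409 with p18), 0.753 for 2i-O48 and 1.10 for 2i-O48-TKO. Ramp2 and Ramp3 also differed in order within 2i-14: Ramp2 was highest at p18 and lowest at p50, and Ramp3 the reverse, so that the ratio of Ramp2 to Ramp3, both per length, was 11.5 at p18, 2.95 at p39 and 0.771 at p50. The summed FPKM of the RAMPs was 5.23 to 13.7 in wild-type 2i/L, 4.51 to 9.05 in TSa2i/L, 4.68 to 6.42 in the deleted lines and 2.28 to 3.52 after the switch. Between genotypes the log2 differences of Ramp2 (-0.54, standard error 0.54) and Ramp3 (-0.26, standard error 0.37) came with overlapping groups.

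**Figure D4:**
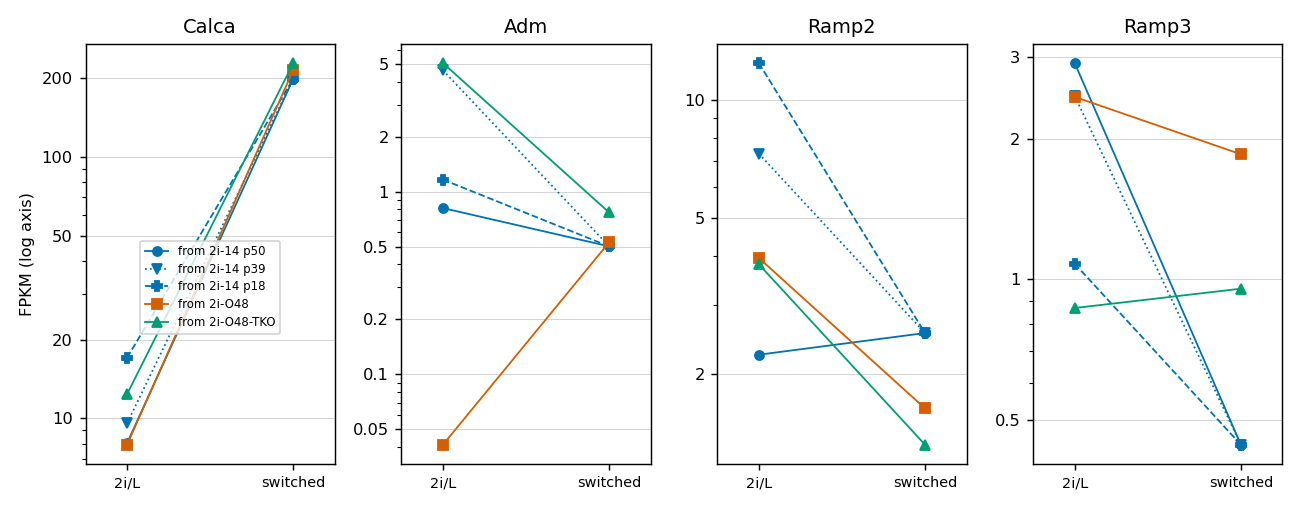
FPKM (log axis) of Calca, Adm, Ramp2 and Ramp3 before the switch (2i/L) and after it (SF/a2i/L), with a line for each pair; 2i-14 is drawn against each of its 3 passages. Calca goes up in every pair, by 11.7 to 27.1 times, while the lines of the other genes differ in direction or in their starting point.

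The rest of the pathway was read out from a list of 62 genes for related peptides, peptide processing, G proteins, cyclases, PKA, phosphodiesterases, CREB factors and cAMP-responsive genes. In TSa2i/L against 2i/L, where 5.72% of all genes were called higher and 1.85% lower, 30 were tested, of which 2 were higher, none was lower and the median log2 difference was 0.03, beside 0.07 for all genes. After the switch, where 2.22% of all genes were called higher and 4.66% lower, 27 were tested, of which 1 was higher and 1 was lower, with a median of -0.17 beside -0.09. Adm2, counted as higher in both comparisons, entered each fit through the group where it was high. None of 30 passed between late and early passages. Between genotypes, where 0.118% of genes were called (12 of 10164), none of 28 passed.

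Among the related peptides, Adm2, which encodes intermedin, a ligand of the same Calcrl and RAMP receptors, had higher values in TSa2i/L. It was 0.325, 0.208 and 0.169 FPKM in 2i-14 at p18, p39 and p50. TSa2i-14 cells had 2.54 FPKM at p22, 3.00 at p47 and 3.48 at p54, and Adm2 was 2.86 and 2.99 FPKM in TSa2i-C57 at p9 and p58. The groups did not overlap, which held for 11.8% of the genes tested with TSa2i/L higher. The log2 difference was 1.68 with a standard error of 0.16 (limma, adjusted p = 0.000365). Every wild-type 2i/L value was under 1 FPKM, so Adm2 entered this fit only through the group where it was high. Nothing is therefore read from its adjusted p or from the lack of overlap. The 2i/L libraries were also passages of a single line, so the p-value does not cover the spread between lines. Adm2 was also higher after the switch, at 2.04 FPKM in 2i-14, 1.51 for 2i-O48 and 2.64 for 2i-O48-TKO, whereas 2i-O48 had 0.380 FPKM and 2i-O48-TKO 1.20 FPKM before it. That log2 difference was 0.99 with a standard error of 0.20 (limma, adjusted p = 0.0408), and without the block for the line the adjusted p was 0.0587 (limma). Adm2 entered that fit through the switched group, where it was high, so nothing is read from that call either.

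Crcp, a protein first described as a component of the CGRP receptor that is also a subunit of RNA polymerase III, rose in TSa2i/L by 0.60 on the log2 scale (standard error 0.15, limma, adjusted p = 0.0335). It was 40.1 to 54.4 FPKM in wild-type 2i/L and 71.1 to 79.4 FPKM in TSa2i/L, but 79.9 FPKM in 2i-O48 in 2i/L, where it was 59.4 FPKM after the switch. Its call was lost under 9 of 14 alternative settings, with adjusted p up to 0.218 (limma). Ackr3, a chemokine receptor that also takes up adrenomedullin, was 9.16 to 11.9 FPKM in 2i/L and 7.40 to 23.1 FPKM in TSa2i/L (adjusted p = 0.803, limma). Iapp, the gene of amylin, had a value above 0 only in TSa2i-C57 p58 (0.144 FPKM).

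Of the genes that process or degrade peptides, 5 were tested between media and none passed. Cpe, which trims peptide precursors, was 2.63 to 14.5 FPKM in wild-type 2i/L and 3.64 to 29.5 FPKM in TSa2i/L, with its highest values in TSa2i-14 p54 and p47. Pam, the enzyme that amidates calcitonin, CGRP and adrenomedullin, was under 1 FPKM in every library, and Pcsk2, a prohormone convertase, was at most 0.0445 FPKM. Its relative Pcsk1 was 0.0841 to 0.179 FPKM in wild-type 2i/L and 0.294 to 2.41 FPKM in TSa2i/L, too low to be tested. Ide, which degrades amylin among other peptides, was 13.6 to 26.2 FPKM across all libraries.

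On the signalling side, Gnas, the gene of the stimulatory G protein, was 45.8 to 85.8 FPKM across the 13 libraries and did not pass in either medium comparison. Prkaca, the gene of a catalytic subunit of PKA, was 7.41 to 10.6 FPKM in the 10 libraries that had not been switched. It was 4.06, 5.62 and 4.06 FPKM after the switch of 2i-14, 2i-O48 and the TKO line. It fell by 0.90 on the log2 scale after the switch (standard error 0.20, limma, adjusted p = 0.0498), and the call was lost under 4 of 10 alternatives, with adjusted p up to 0.348 (limma). Prkacb, the gene of another catalytic subunit, had a log2 difference of 0.32 after the switch and was not called (standard error 0.18, limma, adjusted p = 0.323). Of 4 cAMP-responsive genes tested between media, none passed. Fos, an immediate early gene, was 2.41 to 8.88 FPKM in wild-type 2i/L and 3.89 to 26.8 FPKM in TSa2i/L, and Dusp1, a phosphatase gene, was 59.7 to 117.2 FPKM and 53.6 to 115.3 FPKM. None of 5 CREB factors tested passed, and Creb1 itself was 0.943 to 2.05 FPKM across the libraries.

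Calcr lies beside a cluster of imprinted genes on chromosome 6 that includes Sgce and Peg10, which are expressed from the paternal allele. Of 12 genes of this region 6 were tested between media, and Sgce was called higher in TSa2i/L, with a log2 difference of 1.73 and a standard error of 0.43 (limma, adjusted p = 0.033). Sgce was 1.47, 7.84 and 9.75 FPKM in 2i-14 at p18, p39 and p50 and 12.1 to 27.1 FPKM in TSa2i/L. Without 2i-14 p18 the difference was 1.07, and its call was lost under 9 of 14 alternatives, with adjusted p up to 0.118 (limma). After the switch it was 4.76 to 10.8 FPKM and did not pass (adjusted p = 0.67, limma). Peg10 stayed under 0.5 FPKM in every library.

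Markers of cells known to make Calca were low. Of 8 sensory neuron markers at most 1 reached 1 FPKM in any library, namely Prph, and their summed FPKM was 1.70 to 3.15 in wild-type 2i/L, 1.94 to 3.06 in TSa2i/L, 1.84 to 2.65 in the deleted lines and 1.96 to 2.97 after the switch. Trpv1 was listed at 0 in every library. Of 6 neuroendocrine markers at most 1, Chga, reached 1 FPKM, and their sum was 1.01 to 1.87, 1.26 to 3.51, 1.28 to 1.38 and 1.00 to 1.46 FPKM in the same groups. Scg2 and Sst were listed at 0 in every library. All 8 pluripotent markers exceeded 1 FPKM in every library. Krt7, a keratin gene, was the 1 of 4 trophoblast markers tested that was called, higher in TSa2i/L by 1.99 (standard error 0.20, limma, adjusted p = 0.000398). The other differences were 0.48 for Eomes, -0.31 for Gata3 and -0.28 for Tfap2c. The median of the 4 was 0.10, beside 0.07 for all genes, of which 5.72% were called higher. Krt7 was not called after the switch, with a log2 difference of 0.0027 (limma, adjusted p = 0.995). After the switch, Pecam1, 1 of 2 endothelial markers tested, and Sparc, the 1 fibroblast marker tested, were called lower. So was Nanog, 1 of 8 pluripotent markers tested, whose median difference was -0.085, beside -0.094 for all genes. The differences of Pecam1, Sparc and Nanog were -1.72, -1.19 and -0.93 (limma, adjusted p = 0.0113, 0.0204 and 0.0483). Their calls were lost under 1, 2 and 5 of 10 alternatives. No primitive endoderm marker could be tested between media.

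The genes whose levels were most like those of Calca across the libraries were sought among 10731 genes by Pearson correlation of log2(FPKM + 1) over the 13 libraries, which share media and lines, so the coefficients are a description only. They were Sft2d2 (r = 0.973), a vesicle transport gene, 2610318N02Rik (r = 0.969), Psph (r = 0.968), the enzyme of the last step of serine synthesis, Phlda2 (r = 0.961), an imprinted gene of distal chromosome 7 expressed from the maternal allele, and Flywch2 (r = 0.958). Psph was 80.5 to 88.4 FPKM in wild-type 2i/L, 158 to 186 in TSa2i/L and 202 to 242 after the switch. Phlda2 was 12.0 to 26.3, 52.8 to 81.1 and 82.2 to 96.4 FPKM in the same groups, and 6.77 and 11.7 FPKM in the deleted lines before the switch. Each of the 5 genes was higher in every TSa2i/L and every switched library than in any of the 5 libraries in 2i/L, as Calca was. The genes were picked for their likeness to Calca in these same libraries, so nothing further is read from this separation.

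**Figure D5:**
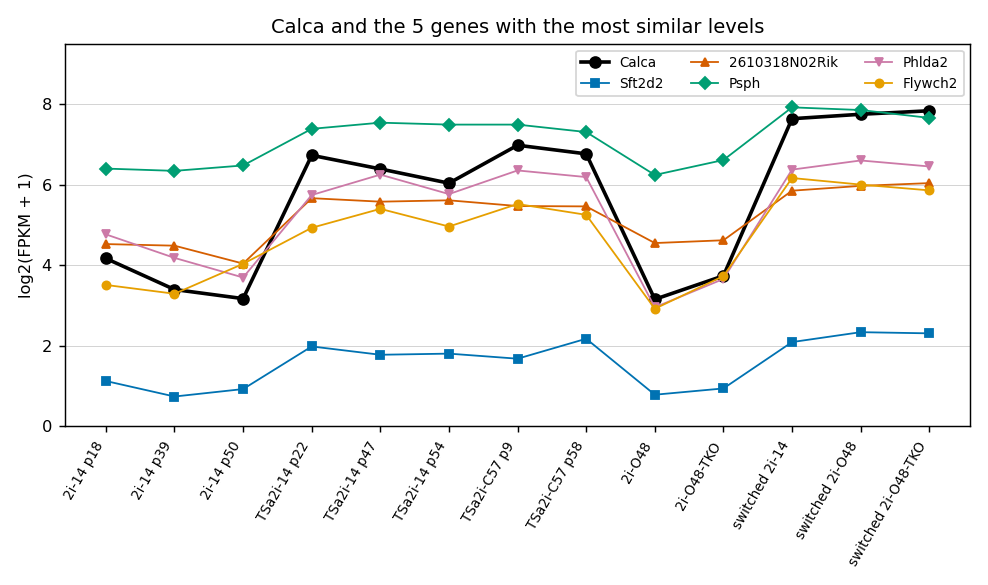
Level on the log2(FPKM + 1) scale of Calca and of the 5 genes with the highest Pearson correlation with it, in each of the 13 libraries; lines join the points of a gene for the eye and imply no order. All 6 genes are low in the libraries kept in 2i/L and high in the TSa2i/L and switched libraries, and Calca spans the widest range.

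The other members had other partners. Adm was most like Fam114a1 (r = 0.915) and the haem oxygenase gene Hmox1 (r = 0.865), Ramp2 was most like Cpne2 (r = 0.927), the stem cell zinc finger gene Zscan10 (r = 0.919) and the sulfatase gene Sulf1 (r = 0.914), and Ramp3 was most like the Polycomb gene Cbx2 (r = 0.84), Notch2 (r = 0.822) and Rapgef2 (r = 0.819). Among members, the coefficient with Calca was -0.07 for Adm, -0.39 for Ramp2 and -0.51 for Ramp3, and it was 0.51 between Adm and Ramp2. No member was among the leading genes of another.

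Across the series, estimated depth was 12700000 to 20000000 fragments per library and 9258 to 10320 genes reached 1 FPKM. FPKM values added up to 651115 to 871848 per library except for switched 2i-14 (2146932), where microRNA loci held 67.2% of the total. In 2i-14 p18, a wild-type control, they held 23.2%, and in 2i-14 p39 1.06%. H19, deleted in 2i-O48-TKO, was listed at 0 there and at 0.0686 FPKM after the switch, but was also 0 to 0.0571 FPKM in wild-type 2i/L, so it does not check the label.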

How the data were processed

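RNA-seq was analysed for 13 libraries of the 41 samples; the methylation and chromatin samples were not analysed here. The authors amplified full-length cDNA from sorted haploid cells, mapped reads to mm9 and deposited an FPKM value per gene and library. The submitters' processing notes name TopHat2 2.0.11, Bowtie2 2.2.2 and Cufflinks 2.2.1; the annotation is not given in the sources used here. Rows with one symbol were summed (24525 rows, 24028 symbols, 268 repeated).

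Comparisons were fitted on log2(FPKM + 1) with limma 3.58.1 (R 4.3.3, trend on intensity, Benjamini-Hochberg adjustment, threshold 0.05). A gene entered when it reached 1 FPKM in a number of libraries equal to the size of the smaller group. The pseudocount understates changes of low genes. The fit of the switch has the cell line as a block and sets switched 2i-14 against p50; the pairing comes from the line named in the labels, and deviations of same-line libraries correlated at 0.172, -0.141 and 0.358. Early passages were those up to 30. Named genes are the 8 members, genes of the pathway lists (those called and others picked as examples after their values were seen), genes within 500 kb of Calca or Calcb, a cluster around Calcr, and the genes most correlated with a member (5 for Calca, 3 for others reaching 1 FPKM in at least 3 libraries; 1 of those for Adm is not reported here). The members and lists were chosen with earlier results of these data known. Fits were tested on simulated data. Depth and the level of 3 fragments were estimated from 3556 genes and cover counting error only. Positions are from GENCODE on NCBIM37, and promoters from RefSeq on GRCm38.p6, which had entries for 6 of the 8 members. Python 3.11.15, numpy 2.4.6, pandas 2.3.3, scipy 1.17.1 and matplotlib 3.10.9 were used. Alternatives were another pseudocount (0.1), no filter, median centring, the highest row of a symbol, other controls, no block, and leaving out libraries.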

Additional observations from a re-analysis of the deposited data

Results flagged for a closer look

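Among the 5 TSa2i/L libraries, 1 lay well away from the rest for 2 of the 8 genes, by a gap above 0.71 of the range. Chance alone gives such a gap in about 1 of 20 groups of normally distributed values. Whether these FPKM values are so distributed was not checked, so the flags are not weighed against that rate. Adm was 10.2 FPKM in TSa2i-14 p54 and 1.85 to 3.15 FPKM in the other 4, so that the gap to the nearest library was 0.846 of the whole range. TSa2i-14 p54 also had the highest fibroblast marker sum (400.8 FPKM), and its part in this was not tested. Calcr was listed at 0 in 4 of the 5 libraries and at 0.0176 FPKM in TSa2i-14 p54, a gap of 1 of the range that rests on about 1 fragment. With a single value above 0 the gap is always 1 of the range, so this flag was fixed in advance.

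Ramp2 moved in opposite directions with the switch, by 0.129 on the log2(FPKM + 1) scale in wild-type 2i-14 against p50 and by -0.91 and -1.05 in the deleted lines 2i-O48 and 2i-O48-TKO. With 1 pair in the wild-type line this difference was not tested, and against p39 or p18 the wild-type line was lower after the switch as well, by -1.23 and -1.92.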

How the results depend on the processing

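Over all alternatives run, the log2 difference of Calca stayed between 2.80 and 3.30 in TSa2i/L against 2i/L and between 4.06 and 4.55 after the switch. Differences of Ramp2 and Ramp3 were smaller. That of Ramp2 ranged from -0.75 to 0.27 between media, changing sign, and from -1.29 to -0.39 after the switch. That of Ramp3 ranged from -0.74 to -0.27 between media and from -0.91 to -0.11 after the switch. Adm in the deleted lines was 1.11 without 2i-O48 and -1.43 without 2i-O48-TKO. Between late and early passages no member passed under any alternative, with adjusted p of 0.341 to 1 for Ramp3 and 0.417 to 1 for Calca (limma). Adm2 stayed called between media under all 14 alternatives, with adjusted p of 0.000324 to 0.00766 (limma), and lost its call after the switch under 5 of 10. Adm2 entered the main fit between media only through the group where it was high, and the alternatives draw on the same libraries. Nothing is therefore read from its kept call.

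The number of called genes moved more. For TSa2i/L against 2i/L, 786 genes became 374 with no filter, 229 without the 3 libraries rich in fibroblast markers, 468 with TSa2i-14 alone and 383 to 846 on leaving out 1 library, the lowest without 2i-14 p39. Median centring changed the share of calls that were higher from 75.6% to 56.2%. For the switch, 672 genes became 0 with no filter (3206 at an unadjusted p under 0.05, limma), 1522 with p39 and 1483 with p18 as control, 778 with no replicate block and 311 to 1461 on leaving out 1 line, the lowest without 2i-O48-TKO and the highest without 2i-O48, while centring moved the higher share from 32.3% to 55.1%. For late against early passages it was 0 (928 at an unadjusted p under 0.05), 0 to 8 on leaving out 1 library, the highest without TSa2i-14 p47, and 0 with a replicate block on the cell line. For genotype, 12 became 0 with no filter and 0 to 20 on leaving out 1 library, the highest without 2i-14 p50. Apart from the fewer genes or samples in a fit, the cause of these shifts was not tested.

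FPKM values carry no counts, groups hold 2 to 5 libraries, and genes below about 3 fragments, Calcb, Calcr, Calcrl and Ramp1 in most libraries, cannot be compared at this depth.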
